A study of Mus musculus with 12 samples.

Results

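The lysosome and autophagy genes described here are 37 genes chosen by name: 25 that encode lysosomal proteases, lipid and sugar hydrolases, their cofactors, membrane proteins and proton pump subunits, 10 that encode the autophagy machinery, and the transcription factors *Tfeb* and *Tfe3*. Each of the 37 was found in the table of 54232 genes, and all passed the filter on low counts that left 17509 genes for testing. Liver mRNA was sequenced from 6 WT mice (Marchf6 fl/fl AlbuminCre-) and 6 LKO mice (Marchf6 fl/fl AlbuminCre+), with 1 library per mouse. All were C57Bl/6J males of 10 weeks, littermates on a chow diet that were fasted for 4 h before sacrifice, and both groups carried the floxed *Marchf6* alleles. In LKO mice Cre was driven by the albumin promoter, which is active in hepatocytes, so the other cells of the liver are not the target of the deletion. The comparison asks how the mRNA of the whole liver differs when hepatocytes lack the ubiquitin ligase MARCHF6.

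Lysosomes are acidified compartments in which hydrolases break down proteins, lipids, glycogen and glycoconjugates, and the V-type proton pump in their membrane keeps them acid. Autophagy brings cytoplasm, organelles and lipid droplets to the lysosome in a vesicle whose membrane carries LC3 and GABARAP proteins. In liver both processes take part in the response to fasting and in the turnover of stored lipid. TFEB and TFE3 bind E-box motifs in the promoters of many of these genes and raise their transcription when they enter the nucleus.

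None of the 37 genes had an adjusted p under 0.05 between LKO and WT livers in edgeR's quasi-likelihood test, against 75 of the 17509 genes tested (0.428%). The lowest p of the 37 belonged to the protease gene *Ctsd*, with a higher mean in LKO livers, followed by the autophagy kinase gene *Ulk1*, with a lower mean. At an unadjusted p under 0.05 there were 7 of the 25 lysosome genes, all higher in LKO livers, and 3 of the 10 autophagy genes, of which 2 were higher and 1 was lower. Over all genes tested this level was passed by 11.7% in either direction, 6.33% higher and 5.36% lower. The median log2 fold change was 0.064 over the lysosome genes, of which 15 of 25 were positive, and 0.0020 over the autophagy genes, of which 5 of 10 were positive, beside 0.00016 over all genes tested. The LKO and WT values did not overlap for 3 lysosome genes, *Ctsb*, *Ctsd* and *Gaa*, each with LKO above. Among all genes tested the groups did not overlap for 1.3%, and LKO lay above WT for 0.748%.

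**Figure D1:**
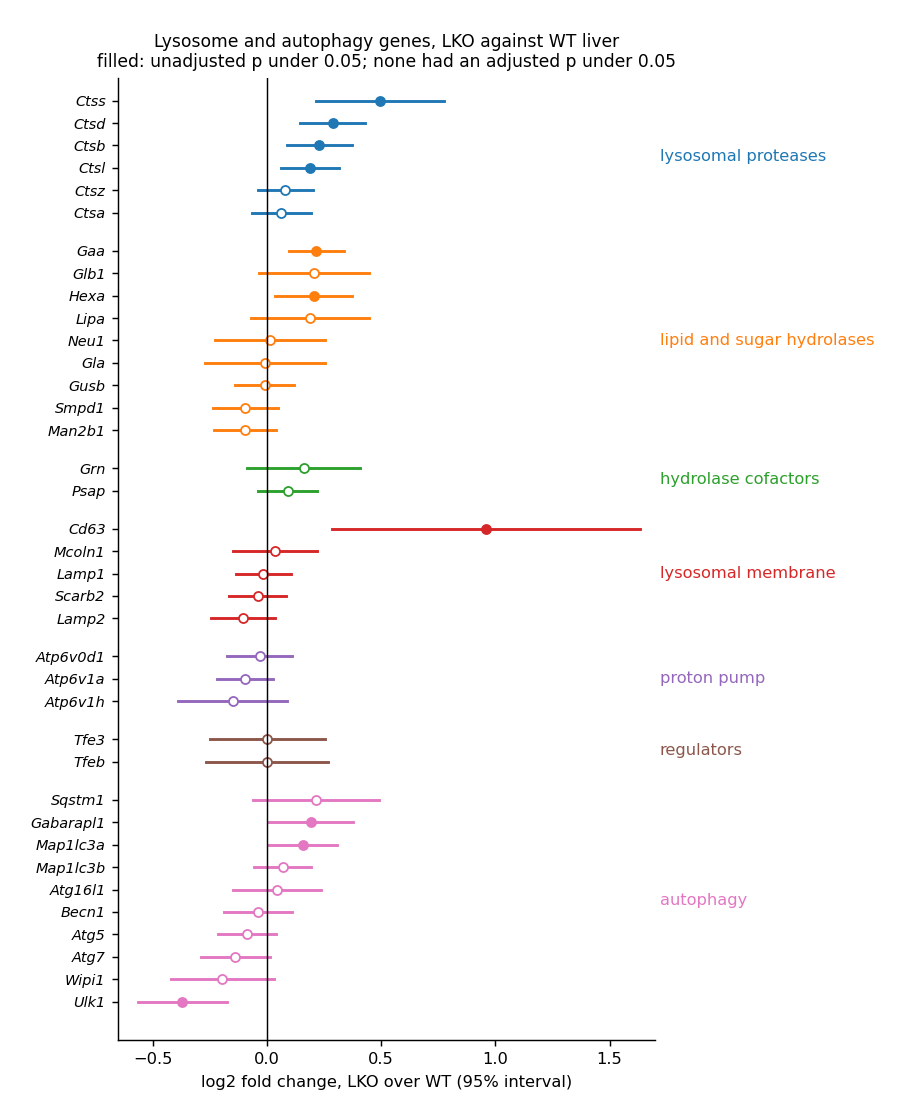
Log2 fold change of each of the 37 genes in LKO over WT livers (x axis), with 95% intervals from edgeR's quasi-likelihood fit, grouped by role. Filled points mark the 10 genes with an unadjusted p under 0.05. The proteases all lie right of 0, the 3 pump subunits all lie left of 0, and *Ulk1* lies farthest left.

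The tool moved this count. DESeq2 called 6 of the 37 genes (*Ctsb*, *Ctsd*, *Ctsl*, *Ctss*, *Gaa* and *Ulk1*) and 350 of the 15122 genes to which it gave an adjusted p (2.31%). Limma voom called 0 of the 37 and 85 of all genes tested (0.485%).

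The libraries held 14860414 to 22111926 reads on genes, and no liver stood apart, with a mean correlation to the other livers of 0.971 to 0.975 in log2 CPM. Levels are given as normalized CPM, the reads of a gene relative to the scaled read total of its library. *Marchf6* itself was at 241 ± 8.36 normalized CPM (mean ± SD, n = 6) in WT and 226 ± 16.5 CPM in LKO livers, with an adjusted p of 0.585 in edgeR. Its count covers all exons and not the deleted one alone, so genotypes were taken from the labels. Reads on mitochondrial genes made up 5.84% to 6.15% of WT and 6.19% to 6.73% of LKO libraries. The library numbers of the labels place every WT library before every LKO library, so this order and the genotype cannot be told apart. Hepatocyte markers summed to 101646 to 127124 CPM in WT and 94655 to 106440 CPM in LKO livers, so the tissue was liver in every library.

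The E-box core CACGTG, which reads the same on both strands, was searched in RefSeq promoters (GRCm38.p6, 250 bases before to 50 bases after the annotated start). Of the 37 genes, 32 had a promoter in that set. The core was present for 10 of 23 lysosome genes (43.5%) and 2 of 7 autophagy genes (28.6%), beside 11.3% of all tested genes with a promoter and 7.15% of all promoter windows. The longer palindrome TCACGTGA, which contains the core, was present for 6 of the 23 lysosome genes (26.1%) and for 2.05% of all tested genes. GTCACGTG or its reverse complement was present for 30.4% and 4.49%, and this motif overlaps the other two. Neither regulator gene had the core in its promoter windows. The following stretches of 80 bases, given 5′ to 3′ on the strand of the gene with each E-box core in capitals, were chosen to set a gene that was higher in LKO livers (*Gaa*) and the gene that was lower (*Ulk1*) beside genes with several cores or the palindrome whose means differed little (*Lamp1*, *Gla*, *Atp6v1a*).
Gaa, chr11:119267786-119267865, plus strand: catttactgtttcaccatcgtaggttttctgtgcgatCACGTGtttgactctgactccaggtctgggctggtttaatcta
Lamp1, chr8:13159086-13159165, plus strand: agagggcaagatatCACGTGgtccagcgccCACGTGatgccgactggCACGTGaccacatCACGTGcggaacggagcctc
Gla, chrX:134601174-134601253, minus strand: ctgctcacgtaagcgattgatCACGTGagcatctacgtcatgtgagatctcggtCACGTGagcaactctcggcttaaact
Atp6v1a, chr16:44139348-44139427, minus strand: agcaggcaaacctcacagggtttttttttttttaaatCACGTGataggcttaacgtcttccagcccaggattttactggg
Ulk1, chr5:110810082-110810161, minus strand: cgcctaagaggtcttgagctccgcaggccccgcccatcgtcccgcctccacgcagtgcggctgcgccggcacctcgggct
*Gaa* holds 1 core 140 bases before the start, *Lamp1* holds 4 between 61 and 15 bases before it, and *Gla* holds 2 at 227 and 194 bases before it, both within the palindrome. *Atp6v1a* holds 1, in the palindrome, 131 bases before the start, and *Ulk1* has none in its window. *Ctsd* has 2 cores, at 245 and 98 bases before its start. All of these distances count from the RefSeq start, which for several genes differs from the gene bounds of GENCODE, a second annotation. By the GENCODE bounds the core of *Atp6v1a* and the nearer core of *Ctsd* lie inside the gene, the latter in a stretch of 80 bases that is all exon. The 10 lysosome genes with a core had a median log2 fold change of 0.049, with 6 positive, and the 13 without had a median of 0.080, with 8 positive. An unadjusted p under 0.05 in edgeR was found for 3 of the 10 and 3 of the 13, beside 11.7% of all genes tested. *Lamp1* with 4 cores had a log2 fold change of −0.01. Whether a core goes with the difference between the groups was not tested. These matches describe letters in a window and say nothing of binding.

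**Figure D2:**
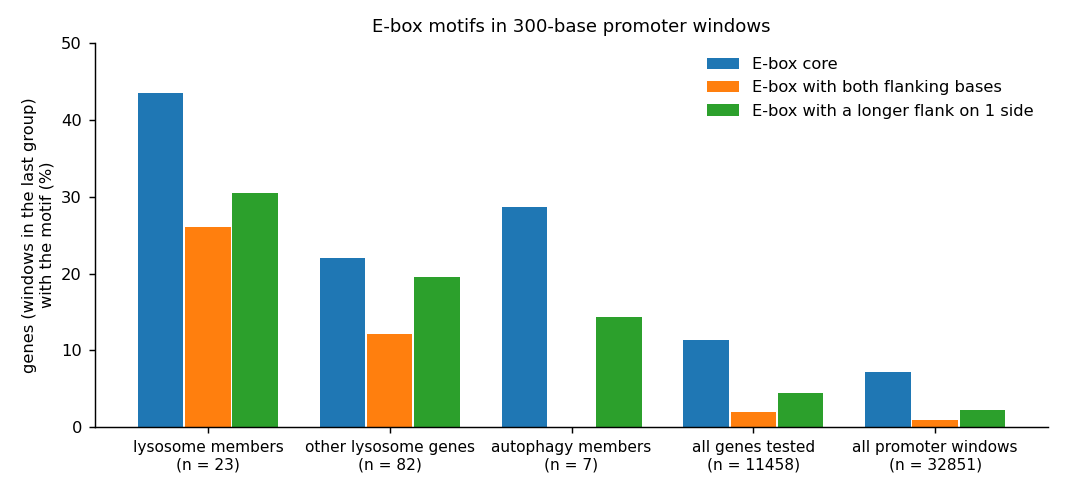
Percentage of genes with a promoter that hold each E-box motif in the 300-base window (y axis), for lysosome genes, the other lysosome genes of the pathway lists, autophagy genes and all genes tested, with all promoter windows as the last group. The core was present for 10 of 23 lysosome genes (43.5%), 18 of 82 other lysosome genes and 11.3% of all genes tested.

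The genes differed widely in level. Per kilobase of exon, *Lamp1*, which encodes an abundant glycoprotein of the lysosomal membrane, was highest in WT livers at 197 ± 7.81 RPKM (SD, n = 6). *Gabarapl1*, *Psap* and *Sqstm1* followed at 134 ± 13.2, 128 ± 5.52 and 123 ± 15.9 RPKM and lay closer together than the SD of *Sqstm1*. At the low end were *Tfeb* at 1.40 ± 0.230 RPKM and *Cd63* at 0.313 ± 0.169 RPKM. The order depends on the length used: *Lamp2* ranked 7 by the union of its exons (9552 nt) and 2 by its longest coding transcript (3604 nt).

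Of the member groups, the proteases were the one in which the LKO livers stood highest. All 6 had a positive log2 fold change, with a median of 0.21, and the mean of the 6 genes in each liver, taken relative to the WT mean, ran from −0.07 to 0.08 in WT and from 0.14 to 0.33 in LKO livers on the log2 scale. The same mean over all 25 lysosome genes, which include the proteases and *Cd63*, ran from −0.057 to 0.057 in WT and from 0.074 to 0.185 in LKO livers. Of the 6 proteases, 4 had an unadjusted p under 0.05 in edgeR. Over all genes tested, 6.33% were higher in LKO livers at this level, and 50.0% had a positive log2 fold change. In the other pathway lists, *Ctsc*, *Ctsf*, *Ctsh*, *Ctsk* and *Ctso* had log2 fold changes of 0.16, 0.05, 0.07, 0.20 and 0.02. Each of these cathepsin genes had an unadjusted p above 0.05. Of further protease genes there, *Lgmn* (0.28) and *Scpep1* (0.18) had an unadjusted p under 0.05, and *Prcp* (0.20) and *Tpp1* (−0.03) did not. All of these other genes were named after their values were seen.

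*Ctsd*, on chromosome 7 (142375911 to 142388038, minus strand), encodes the main aspartic protease of the lysosome. Its lowest, median and highest normalized CPM were 140, 144 and 168 in WT and 172, 181 and 203 in LKO livers. Every LKO liver was above every WT liver. The means of 151 ± 12.7 (WT) and 184 ± 10.9 CPM (LKO; SD, n = 6) gave a log2 fold change of 0.29, with a standard error of 0.067 and an adjusted p of 0.0809 in edgeR. Of the 12 fits that left out 1 liver, the one without WT replicate 3, the highest WT value, gave an adjusted p of 0.0343, and the other 11 did not pass. *Ctsd* shares 808 nt, 34.4% of its exons, with the gene model *Gm49369* on the same strand, to which reads in the shared part could also belong.

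*Ctsb*, a cysteine protease gene on chromosome 14 (63122462 to 63145923, plus strand), had a lowest, median and highest CPM of 454, 501 and 508 in WT and 523, 582 and 647 in LKO livers. The groups again did not overlap. On the log2 scale the fold change was 0.23 ± 0.067 (standard error), with an adjusted p of 0.168 in edgeR. Its exons share 774 nt with *Fdft1* on the other strand, a gene of cholesterol synthesis that was at 78.4 CPM in WT and 63.6 CPM in LKO livers.

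*Ctsl*, a further cysteine protease gene, was the most abundant protease by count, with a mean of 621 ± 38.4 CPM in WT and 707 ± 26.6 in LKO livers (SD, n = 6). It ran from 558 to 661 CPM in WT and from 657 to 731 CPM in LKO livers, so that 1 LKO liver fell within the WT range. The log2 fold change was 0.19 (standard error 0.060), with an adjusted p of 0.215 in edgeR. *Ctsz*, a carboxypeptidase gene, had a log2 fold change of 0.08 with a 95% interval from −0.04 to 0.20. *Ctsa*, which encodes the carboxypeptidase that also holds β-galactosidase and sialidase together, had 0.06, with an interval from −0.06 to 0.19. *Ctsa* shares 495 nt of its exons, 10.5% of them, with *Pltp* on the opposite strand, and *Pltp* rose from 46.2 to 137 CPM (log2 fold change 1.57, adjusted p = 0.0171 in edgeR). The strand setting of the counting is not given in the sources used here, so reads in such shared stretches cannot be assigned. Exons of 14 of the 37 genes overlap another gene, in 12 cases on the opposite strand.

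*Ctss*, the cysteine protease known from antigen-presenting cells and macrophages, had the largest difference of the proteases at a low level. Its CPM were 12.4, 15 and 17.9 (lowest, median, highest) in WT and 16.8, 21.5 and 29.3 in LKO livers. A pair of LKO livers lay within the WT range and the other 4 lay above it. The log2 fold change was 0.50 (standard error 0.13), with an adjusted p of 0.126 in edgeR. Kupffer cell markers moved with it: all 11 had a positive log2 fold change (median 0.37), and none was at 0. Of these markers, 9 had an unadjusted p under 0.05 in edgeR, beside 11.7% of all genes tested. An adjusted p under 0.05 was reached by 0 in edgeR and 3 in DESeq2, beside 0.428% and 2.31% of all genes with an adjusted p. Their summed level was 140 to 191 CPM in WT and 170 to 295 CPM in LKO livers. LKO replicate 3 was the highest and LKO replicate 6 the lowest of the LKO livers in both *Ctss* (29.3 and 16.8 CPM) and the Kupffer sum (295 and 170 CPM). In bulk liver, a difference in the number of cells of a type and a difference in RNA per cell cannot be told apart, and the part of Kupffer cells in the protease values was not tested.

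**Figure D3:**
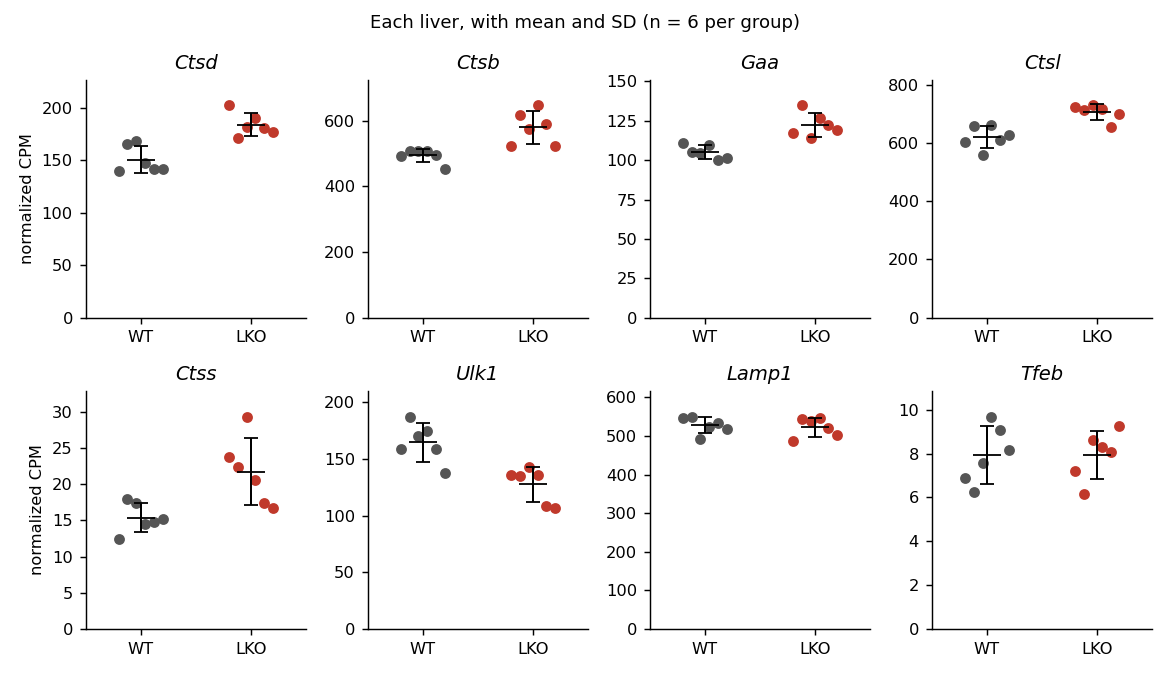
Normalized CPM (y axis, from 0) of 8 genes in each of the 6 WT and 6 LKO livers, with mean and SD. *Ctsd*, *Ctsb* and *Gaa* show no overlap between groups, *Ctsl*, *Ctss* and *Ulk1* overlap slightly, and *Lamp1* and *Tfeb* show the groups at the same level.

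Among the 9 lipid and sugar hydrolase genes, 5 had a positive and 4 a negative log2 fold change, with a median of 0.01. *Gaa*, on chromosome 11 (119267887 to 119285454, plus strand), encodes the acid α-glucosidase that degrades glycogen. It measured 99.9, 105 and 111 CPM (lowest, median, highest) in WT and 114, 121 and 135 CPM in LKO livers. All LKO values were above all WT values. The log2 fold change was 0.22 (standard error 0.057), with an adjusted p of 0.124 in edgeR. *Hexa*, the α subunit gene of β-hexosaminidase, had a log2 value of 0.21 ± 0.079 (standard error) with overlapping groups and an adjusted p of 0.317 in edgeR.

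*Lipa* encodes lysosomal acid lipase, which frees fatty acids and cholesterol from the lipids that reach the lysosome. Its CPM ran from 193 to 274 in WT and from 193 to 314 in LKO livers. The lowest liver of each group stood at the same level, and 5 of 6 LKO livers were above the WT mean. The log2 fold change was 0.19 with a 95% interval from −0.07 to 0.45 and an adjusted p of 0.579 in edgeR, so a difference of either sign was not resolved. *Smpd1*, the acid sphingomyelinase gene, had −0.09 (interval −0.24 to 0.05).

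The sugar hydrolases had no common sign. *Glb1*, for β-galactosidase, had a log2 fold change of 0.21 (interval −0.04 to 0.45) and *Neu1*, for sialidase, 0.01 (interval −0.23 to 0.25). *Gla*, for α-galactosidase A, had −0.01 at a mean of 5.46 CPM in WT and 5.44 CPM in LKO livers. *Gusb*, for β-glucuronidase, had −0.01, and *Man2b1*, for lysosomal α-mannosidase, −0.10. For *Gusb* the interval from −0.14 to 0.12 leaves room only for small differences.

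The cofactor genes were both slightly positive. *Psap*, whose product is cut into the saposins that sphingolipid hydrolases need, had a log2 fold change of 0.09 (interval −0.04 to 0.22). *Grn*, for progranulin, had 0.16 (interval −0.08 to 0.41), with a WT range of 170 to 262 CPM that held 4 of the 6 LKO livers.

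The membrane protein genes were close to 0 with 1 exception at a very low level. *Lamp1* measured 493, 529 and 550 CPM (lowest, median, highest) in WT and 487, 529 and 545 CPM in LKO livers. The ranges nearly coincided, and the log2 fold change was −0.01 with an interval from −0.13 to 0.10. *Lamp2*, which also serves chaperone-mediated autophagy, had −0.11 (interval −0.24 to 0.03) and lay under the mean of WT in 5 of 6 LKO livers. *Scarb2*, the carrier of glucocerebrosidase, had −0.04, and *Mcoln1*, the calcium channel of the lysosome, 0.03. *Cd63*, a tetraspanin gene, had 0.96 (standard error 0.32, adjusted p = 0.232 in edgeR), but its counts were only 8 to 78 reads per liver. Of the 50-base words of its longest coding transcript, 36.5% also occur in an annotated gene elsewhere, chiefly the pseudogene *Cd63-ps*, so its count is uncertain. Of the other members, 31 shared no such word with a gene elsewhere and 5 shared at most 1.24%.

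The 3 proton pump genes all had a negative log2 fold change of small size. *Atp6v1a*, the catalytic subunit, had −0.10 (interval −0.22 to 0.03), *Atp6v1h* had −0.15 (interval −0.39 to 0.09) and *Atp6v0d1*, of the membrane sector, had −0.03. None had an unadjusted p under 0.05. Averaged over the 3, WT livers ran from −0.13 to 0.13 and LKO livers from −0.20 to 0.03 around the WT mean on the log2 scale, so the groups overlapped.

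*Tfeb* and *Tfe3*, the regulators of this gene network, had the same mean in both groups. *Tfeb* was at 7.94 ± 1.30 CPM in WT and 7.94 ± 1.09 in LKO livers (SD, n = 6), and its log2 fold change of 0.001 had an interval from −0.26 to 0.27. *Tfe3* was at 30.4 ± 1.66 CPM in WT and 30.4 ± 6.99 in LKO livers (SD, n = 6). The wider spread in LKO livers came from replicate 1 at 43.6 CPM, and without that liver the log2 fold change was −0.13. mRNA level does not report where these proteins are in the cell.

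**Figure D4:**
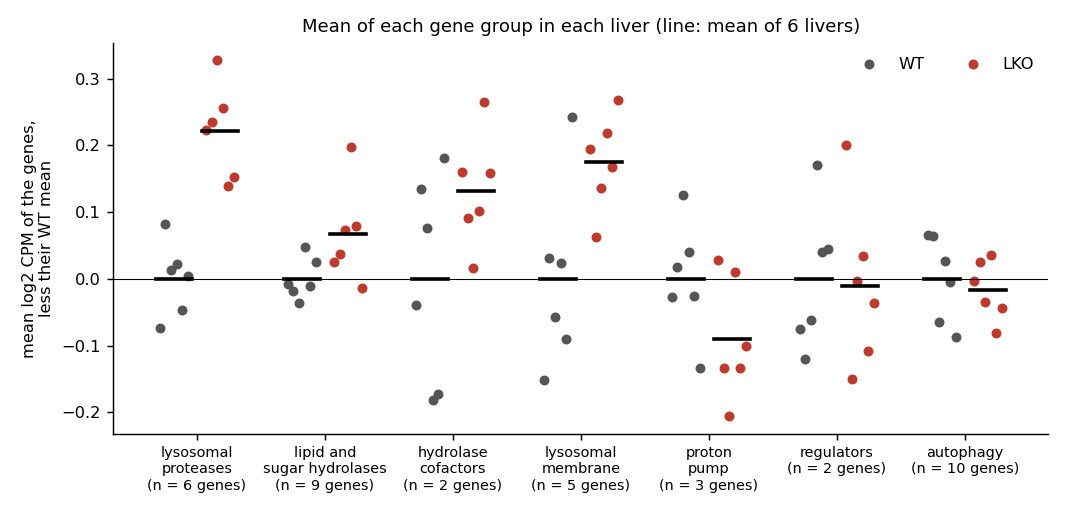
Mean log2 CPM of each role's genes in each liver, less the genes' WT mean (y axis), with a line at the mean of 6 livers. The 6 proteases lie at 0.14 to 0.33 in LKO livers and at −0.07 to 0.08 in WT livers. The membrane group includes *Cd63*, and the autophagy genes lie at −0.08 to 0.04 in LKO livers.

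The autophagy genes showed no common direction. *Ulk1*, on chromosome 5 (110784488 to 110810097, minus strand), encodes the kinase that starts autophagosome formation. It measured 138, 165 and 187 CPM (lowest, median, highest) in WT and 107, 135 and 143 CPM in LKO livers. All 6 LKO livers were below the WT mean, and 1 of them was above the lowest WT liver, replicate 6. The means of 165 ± 17.0 (WT) and 127 ± 15.7 CPM (LKO; SD, n = 6) gave a log2 fold change of −0.37, with a standard error of 0.091 and an adjusted p of 0.0992 in edgeR. Leaving out 1 liver gave −0.41 to −0.32, and none of these 12 fits called the gene, whereas DESeq2 called it on all 12 livers (adjusted p = 0.0127 in DESeq2).

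The genes for the ubiquitin-like proteins of the autophagosome were on the positive side. *Map1lc3a* ran from 22.9 to 30.1 CPM in WT and from 28.2 to 33.2 CPM in LKO livers. This gave 0.16 ± 0.070 (standard error) on the log2 scale and an adjusted p of 0.382 in edgeR. *Gabarapl1* ran from 232 to 302 CPM in WT and from 255 to 341 CPM in LKO livers. The corresponding values were 0.19 ± 0.086 and an adjusted p of 0.402 in edgeR. *Map1lc3b*, the usual marker of autophagosomes, had 0.07 with an interval from −0.06 to 0.19.

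*Sqstm1* encodes p62, a receptor that brings ubiquitinated cargo to the autophagosome and is itself degraded there. Its CPM were 367, 399 and 514 (lowest, median, highest) in WT and 390, 444 and 691 in LKO livers. The highest value belonged to LKO replicate 1, and the highest WT value, in replicate 2, was above 5 of the 6 LKO livers. The log2 fold change was 0.21 (interval −0.06 to 0.49, adjusted p = 0.551 in edgeR), and without LKO replicate 1 it was 0.08. LKO replicate 1 was also the highest liver in the sums of recruited macrophage markers (6.88 CPM) and neutrophil markers (4.09 CPM), and their part in its value was not tested. *Sqstm1* shares 580 nt, 17.3% of its exons, with *Mrnip* on the opposite strand, which was at 2.17 CPM in WT livers.

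The conjugation and nucleation genes were near 0 or slightly negative. *Atg7*, which activates the ubiquitin-like proteins, had a log2 fold change of −0.14 (interval −0.29 to 0.01), and all 6 LKO livers were below the WT mean. *Atg5* had −0.09 (interval −0.21 to 0.04) and its partner *Atg16l1* 0.04 (interval −0.15 to 0.24). *Wipi1*, which binds the lipid of the forming vesicle, had −0.19 (interval −0.42 to 0.03), with all 6 LKO livers below the WT mean. *Becn1*, of the lipid kinase complex, had −0.04. Exons of *Becn1* overlap *Cntd1* on the other strand over 3104 nt, 43.9% of them. *Cntd1* was at 0.176 CPM in WT livers, which does not tell whether reads in the shared part were counted.

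The lists of other pathway genes held 182 more genes, all of them tested. In edgeR 2 of these had an adjusted p under 0.05, beside 75 of all 17509 genes tested (0.428%). Both belong to the other lysosomal hydrolases and their helpers, of which 28 of 44 had a positive log2 fold change, with a median of 0.061. At an unadjusted p under 0.05, 6 of the 44 were higher and 1 was lower, beside 6.33% and 5.36% of all genes tested. *Galc*, the enzyme that degrades galactosylceramide (chromosome 12, 98202294 to 98259459, minus strand), rose from 7.70, 8.83 and 9.40 CPM (lowest, median, highest) in WT to 10.6, 11.5 and 12.1 CPM in LKO livers. Its log2 fold change was 0.39 (standard error 0.075, adjusted p = 0.0331 in edgeR). *Npc2*, which hands cholesterol to NPC1 for export from the lysosome (chromosome 12, 84754562 to 84773152, minus strand), rose from 49.4, 57.5 and 60.8 CPM in WT to 63.8, 70.5 and 74.5 CPM in LKO livers. Its log2 fold change was 0.31 (standard error 0.062, adjusted p = 0.0475 in edgeR). In both genes every LKO liver was above every WT liver, as for 0.748% of all genes tested. Both were named for their adjusted p in the same livers, so this separation is no further evidence. Both calls were lost in 10 of the 12 fits without 1 liver, in which the log2 fold change stayed between 0.35 and 0.41 for *Galc* and between 0.27 and 0.33 for *Npc2*. DESeq2 called 3 genes of this list, *Galc*, *Npc2* and *Arsb*, beside 2.31% of all genes to which it gave an adjusted p. *Arsb*, the sulfatase of dermatan and chondroitin sulfate, was lower in LKO livers, with a log2 fold change of −0.33. Its adjusted p was 0.0145 in DESeq2 and 0.0898 in edgeR, and it was named after its values were seen. Neither *Galc* nor *Npc2* had the E-box core in its promoter.

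The remaining lysosome lists had no gene with an adjusted p under 0.05 in edgeR. DESeq2 called 1 of 27 other membrane proteins (*Abca2*, lower in LKO livers) and 1 of 16 other pump subunits (*Atp6v1g1*, higher). It called 2.31% of all genes to which it gave an adjusted p. Of 27 other membrane proteins, 4 were higher and 2 lower at an unadjusted p under 0.05, beside 6.33% and 5.36% of all genes tested. *Abca2*, a lipid transporter, had a log2 fold change of −0.34 (adjusted p = 0.131 in edgeR) and *Mfsd12*, a cysteine importer, 0.40 (adjusted p = 0.181 in edgeR). The other 3 of the higher genes, *Cd68*, *Slc11a1* and *Laptm5* (log2 fold changes 0.52, 0.45 and 0.43), were named after their values were seen, and they are known as macrophage genes. The other lower gene, *Slc29a3*, had −0.38 and was likewise named after its values were seen. Of 16 other pump subunits, 11 were positive, and *Atp6v1g1* had 0.30 (adjusted p = 0.121 in edgeR), with 19.2% of its 50-base words also in a gene elsewhere. *Atp6ap2*, an accessory pump protein, had 0.10. Among 20 genes of enzyme sorting and lysosome fusion the range was −0.16 to 0.13, with *Vps33a* at −0.16 and *Vps16* at 0.12, both parts of the tethering complexes. The 27 genes of nutrient sensing had a median of 0.010, with *Rptor*, of the mTORC1 kinase complex, at −0.14 and its inhibitor *Tsc2* at −0.13.

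Of 31 other autophagy core genes, 22 had a negative log2 fold change, with a median of −0.05. None had an adjusted p under 0.05 in edgeR or DESeq2, and 4 (12.9%) had an unadjusted p under 0.05, all lower in LKO livers, a share close to the 11.7% of all genes tested that passed this level in either direction and above the 5.36% that passed it lower. *Atg9a*, the lipid scramblase that seeds the membrane, had −0.19 (adjusted p = 0.218 in edgeR), and *Pik3r4*, of the lipid kinase complex, had −0.19 (adjusted p = 0.310 in edgeR). *Ulk2*, the paralog of *Ulk1*, and *Atg101*, of the same kinase complex, had −0.17 and −0.14 and were named after their values were seen. Among 17 autophagy receptors, *Nbr1* had −0.20 (adjusted p = 0.247 in edgeR) and *Bnip3l*, a receptor for mitochondria, had 0.08, with 23.4% of its words also in a pseudogene.

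**Figure D5:**
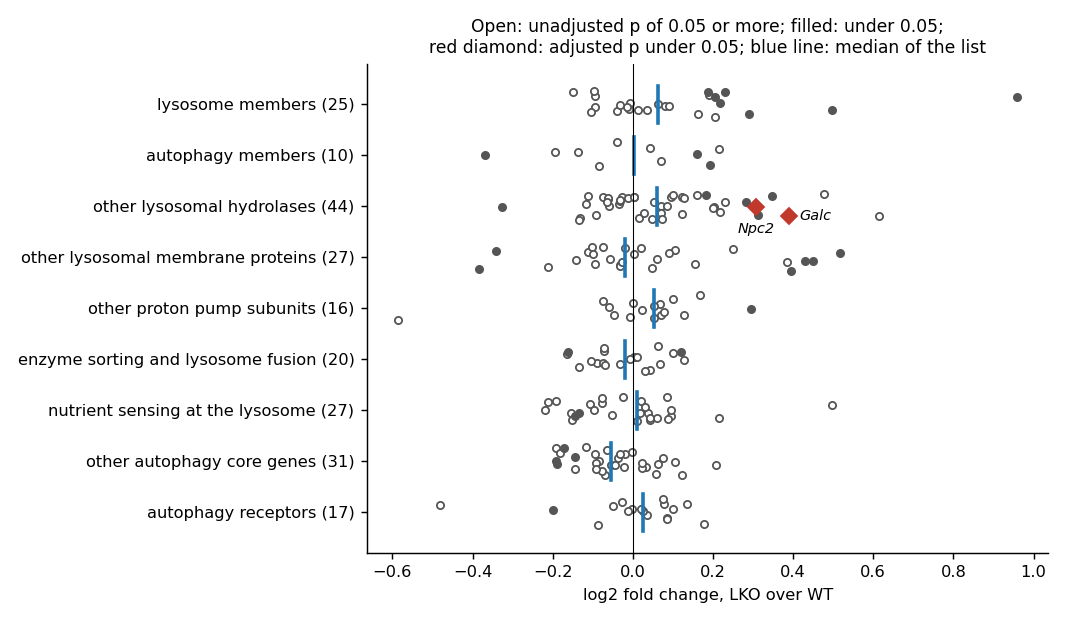
Log2 fold change in LKO over WT livers (x axis) of every gene of the 2 member groups and the 7 other pathway lists, with the number of genes in parentheses and the list median as a blue line. Filled points have an unadjusted p under 0.05, and *Galc* and *Npc2*, as red diamonds, are the ones with an adjusted p under 0.05.

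Most marker lists of the other liver cells had higher sums in LKO livers. Recruited macrophage markers summed to 1.46 to 2.49 CPM in WT and 2.43 to 6.88 CPM in LKO livers, with 5 of 5 positive. Neutrophil markers, of which 2 of 3 were tested, summed to 0.0524 to 0.553 CPM in WT and 0.703 to 4.09 CPM in LKO livers, and B cell markers to 0.967 to 1.88 CPM and 1.81 to 3.29 CPM. Endothelial markers had a median log2 fold change of 0.03 with 6 of 8 positive, stellate cell markers 0.22 with 7 of 7 positive, and cholangiocyte markers −0.10 with 2 of 4 positive. No list had a marker at 0 in all livers, and none of these sums was tested. Myeloid cells are rich in lysosomal hydrolases, and the part of these cells in the values of *Ctsd*, *Ctsb*, *Npc2* and *Galc* was not tested.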

How the data were processed

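Livers of 6 WT and 6 LKO mice were compared, grouped by the labels. The authors deposited raw counts, 1 row for each Ensembl gene, made with FastQC 0.11.15, Trimmomatic 0.36, HISAT2 2.1.0 and HTSeq 0.6.1 on GRCm38, with no normalization and no filter. The strand setting and overlap mode are not given in the sources used here.

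A gene was kept where 6 or more livers held over 2 reads of it. TMM scaling was applied, and genes were tested with edgeR 4.0.16 (quasi-likelihood, genotype as the only term, R 4.3.3), with Benjamini-Hochberg adjustment over all 17509 genes and a threshold of 0.05. Standard errors and 95% intervals came from that fit. Normalized CPM use TMM library sizes, log2 CPM a prior count of 0.5, and RPKM the union of exons in GENCODE M21 (GRCm38). Reads carry no molecular identifiers, so depth covers counting error only. The pipeline was tested on simulated counts. No gene set test was run.

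The members, the lists of other pathway genes and the markers were chosen with earlier results of these data known. The text names all members and, from each other list, genes past the threshold and the 2 with the lowest p, except where it says otherwise. Alternatives were RLE and upper-quartile scaling, scaling without the 20 most abundant genes, no filter, at least 10 reads in every liver, limma 3.58.1 voom, DESeq2 1.42.0, a replicate block and leaving out each liver. Motifs were searched as exact matches in RefSeq promoters (GRCm38.p6).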

Additional observations from a re-analysis of the deposited data

Results flagged for a closer look

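The search covered 104 groups of 6 livers: the WT and LKO values of the members, of the pathway genes named by rule, and of the total reads. Genes named after their values were seen were not searched. In each group the distance from an extreme liver to its neighbour was divided by the group's range and compared with Dixon's critical value of 0.625. It was passed by 5 groups, and chance alone gives about 1 in 20, or 5.2. *Ctsb* in WT replicate 6 was the lowest of its group (ratio 0.729, 454 CPM against a median of 501). *Sqstm1* in WT replicate 2 was the highest (0.629, 514 CPM against 399), as was *Map1lc3a* in LKO replicate 1 (0.729, 33.2 CPM against 29.1). *Atg16l1* in WT replicate 4 (0.716, 30.7 CPM against 38.4) and *Bnip3l* in WT replicate 5 (0.628, 59.5 CPM against 65.2) were the lowest of their groups.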

How the results depend on the processing

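Counts of genes moved more than the members' values. Genes called in LKO against WT were 75, and 114 with no filter, 350 with DESeq2, and 38 (without WT replicate 5) to 132 (without WT replicate 3) when 1 liver was left out. Lysosome members called were 0, 5 with DESeq2, and 0 to 1 without 1 liver. Autophagy members called were 0, and 1 with DESeq2. The replicate block also called 1 autophagy member, *Ulk1* (adjusted p = 0.0299 in edgeR), with 97 genes called in all, and *Galc* and *Npc2* lost their calls in it (adjusted p = 0.0550 and 0.0565, log2 fold changes 0.39 and 0.31). Livers with the same number share only that number: their correlation ran from −0.065 to 0.135, and not every liver matched its own number best. Members near 0 changed sign. Log2 fold changes were −0.00305 for *Tfeb* and −0.00175 for *Tfe3* with RLE scaling, −0.00256 and −0.00182 with DESeq2, and for *Tfe3* −0.0227 with limma voom and −0.0233 with the replicate block. They were 0.00795 for *Gla*, 0.00760 for *Gusb* and 0.00198 for *Lamp1* with upper-quartile scaling and 0.00670, 0.00619 and 0.000464 with no filter. Without 1 liver they ran from −0.0802 to 0.0569 for *Gla*, −0.0279 to 0.0130 for *Gusb*, −0.0543 to 0.0707 for *Neu1*, −0.0344 to 0.00506 for *Lamp1*, −0.00553 to 0.0902 for *Mcoln1*, −0.0580 to 0.000292 for *Atp6v0d1*, −0.0617 to 0.0654 for *Tfeb*, −0.130 to 0.0579 for *Tfe3* and −0.00711 to 0.0927 for *Atg16l1*. The cause was not tested. Of the members' values under the other alternatives, 276 kept their sign and side of the threshold, 7 passed it and 12 changed sign, and with 1 liver left out the counts were 413, 1 and 30. The alternatives for *Galc*, *Npc2* and the other named pathway genes were chosen after seeing the data. Depth limits *Cd63*, *Gla* and *Tfeb*, which had the fewest reads.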
